A study of Homo sapiens with 12 samples.

Results

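The genes that make and use small silencing RNAs were followed in 2 human mantle cell lymphoma lines that were made to express a hairpin RNA. The 10 genes were DROSHA, DGCR8, XPO5, DICER1, AGO1, AGO2, AGO3, AGO4, TNRC6A and TNRC6B. They were found through the gene annotation of the array: 44 of its 54675 probe sets carried one of these names or CASC7, now a synonym of AGO2. Z-138 and Maver-1 are established human cell lines from this B cell tumour; the labels give a nonsense change of TRAF2 in Z-138 and a deletion of TRAF3 in Maver-1. Each line carried 1 of 3 inducible hairpins, a non-targeting control (NTC) or one of a pair, NIKsh#1 and NIKsh#2, against MAP3K14, which encodes the kinase NIK. All 6 cultures were kept under puromycin, and each was split into a part without doxycycline (0 ng/ml) and a part at 100 ng/ml for 7 days, which gave 12 Affymetrix arrays, 1 per culture and dose. Doxycycline and the induced hairpin came together in every culture, so their effects cannot be told apart, and cultures without a hairpin construct were not analysed here. Whether a culture was 1 clone or a mixed population is not given in the sources used here.

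A short hairpin RNA shares steps with the path of the cell's own microRNAs. At which step the hairpins used here enter that path was not analysed. For a microRNA, DROSHA, an RNase III enzyme, and its partner DGCR8 cut the primary transcript in the nucleus. Exportin-5 (XPO5) carries the hairpin to the cytoplasm, and DICER1, another RNase III enzyme, cuts off the loop. An Argonaute protein (AGO1 to AGO4) holds the guide strand; AGO2 is the Argonaute best known for slicing a matched target. The TNRC6 proteins bind Argonautes and recruit the enzymes that shorten and decap the target mRNA. Hairpins expressed at high levels are known to compete with microRNAs for exportin-5 and the Argonautes, and DICER1 and DGCR8 mRNAs are themselves known to be controlled by this machinery.

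DGCR8 needs a remark on its probes, since its gene holds a microRNA. All 4 of its probe sets carry the names of DGCR8 (chr22:20080241-20111872, GRCh38.p14) and of MIR1306 (chr22:20086058-20086142), whose hairpin lies inside it on the same strand. The annotation of the array lists both names for each of these probe sets, so none belongs to DGCR8 alone. The 2 mature arms of MIR1306 are shown for reference, and which bases the probes match was not analysed. Sequences are from RefSeq, and capitals mark the seed, bases 2 to 8. The 5p arm lies at chr22:20086072-20086093 and the 3p arm at chr22:20086112-20086129.
hsa-miR-1306-5p: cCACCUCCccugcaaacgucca
hsa-miR-1306-3p: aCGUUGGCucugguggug
The seeds of the arms differ. The values of these 4 probe sets are given as DGCR8/MIR1306, and DGCR8 entered no test per gene. For the other 9 genes the brightest probe set (highest mean on the log2 scale) stood for the gene, and each other probe set is given by its own number.

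Of the 44 probe sets, 40 had a mean signal of at least 12.55, the limit below which probe sets were left out, and every one of the 10 genes kept at least 1. The 4 that were left out were one each of DICER1 (216260_at), AGO1 (239036_at), AGO4 (1569408_at) and TNRC6A (233836_at). Changes are differences of log2(signal + 3), which understates the change of dim probe sets. Errors are standard errors (SE) of limma's models, tests are two-sided, and a gene passed when its p, adjusted by Benjamini-Hochberg over the 11546 genes tested, was under 0.05. Nothing in the labels gives repeated cultures of a construct, so p-values measure the spread between these cultures only.

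The target of the hairpins was read first. The MAP3K14 signal was lower with doxycycline in 4 of the 4 NIKsh cultures and higher in both NTC cultures: in Z-138 it was 46.4 without and 55.4 with doxycycline for NTC, 55.2 and 33.3 for NIKsh#1, and 52 and 49.2 for NIKsh#2. The Maver-1 values were 77.2 and 132.7 for NTC, 86.9 and 63.4 for NIKsh#1, and 79.3 and 55.7 for NIKsh#2. The change over the NIKsh cultures was -0.42 ± 0.18 (SE) and did not pass (adjusted p = 0.528). Both lines had signal for B cell markers (MS4A1 2767.1 to 4005.8, CD79A, CD79B, PAX5, CCND1 and SOX11). Of 13 measured markers of T cells, monocytes and fibroblasts, 10 (such as CD3D, CD14 and COL1A2) stayed at or under 10.1, whereas LYZ reached 25.3, CD3G 177.5 and COL1A1 244.2. The last 2 were higher in Z-138: the mean of CD3G was 121 in Z-138 and 4.03 in Maver-1, and that of COL1A1 174 and 33.9. The arrays differed in RNA quality, read here as GAPDH's 3' signal over its 5' signal, which is higher when transcripts are broken or incompletely copied. Without and with doxycycline it was 1.17 and 2.00 in Z-138 NTC, 1.30 and 1.36 in Z-138 NIKsh#1, and 1.15 and 1.83 in Z-138 NIKsh#2. The Maver-1 ratios were 2.39 and 1.68 for NTC, 1.63 and 1.58 for NIKsh#1, and 1.54 and 1.42 for NIKsh#2. It was higher with doxycycline in 3 of 3 Z-138 cultures and lower in 3 of 3 Maver-1 cultures, though by little in both NIKsh#1 cultures. The same ratio of ACTB was higher in 3 of 3 Z-138 cultures and lower in Maver-1 NTC and NIKsh#1, but in Maver-1 NIKsh#2 it was 3.65 without and 3.80 with doxycycline.

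Over all 6 cultures, no gene of the machinery passed with doxycycline, and the changes were small. DICER1 (0.24 ± 0.07) and AGO2 (0.23 ± 0.08) had the smallest p of the 9 genes, and both had an adjusted p of 0.679 by limma. The estimates were above 0 for 8 of 9 genes, all but AGO1, with a median of 0.16, beside 0.017 over all genes, of which 54.9% were above 0. No gene of the array passed either (0% of 11546). At an unadjusted p under 0.05 there were 2 of the 9 genes, beside 7.26% of all genes. With the probe sets of a gene averaged, 6 of 9 genes were above 0, and the median was 0.018, beside 0.00094 over all genes. In that setting 2 of the 9 genes changed sign, and the estimate of DICER1 turned to -0.045. Those of AGO2, AGO3, AGO4, TNRC6A and TNRC6B stayed above 0 under every alternative run.

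**Figure D1:**
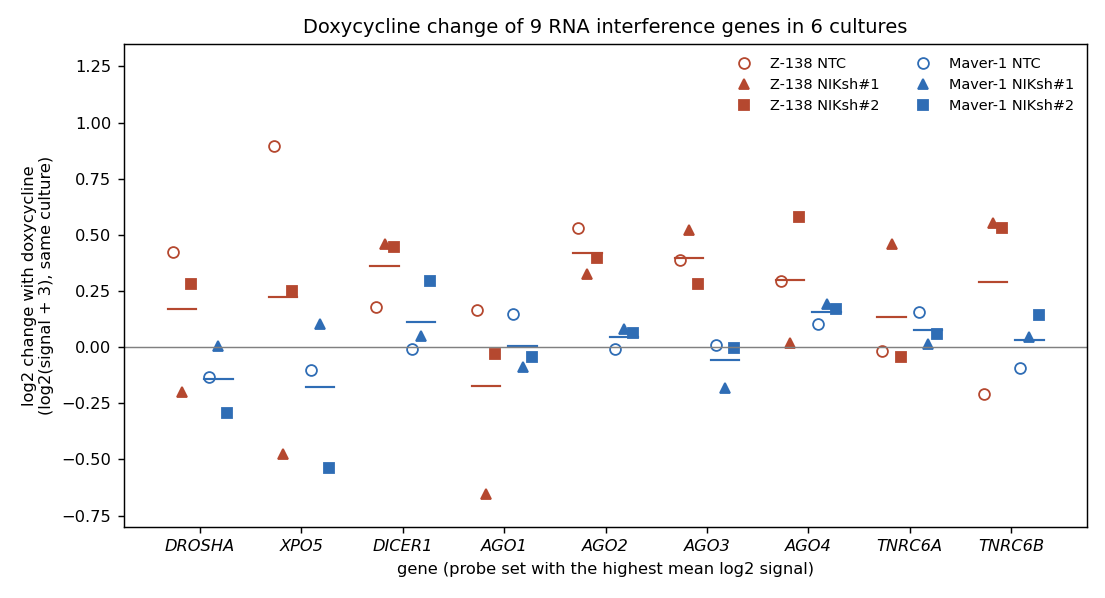
Change of log2(signal + 3) with doxycycline (y axis) for 9 genes of the machinery (x axis), 1 point per culture, red for Z-138 and blue for Maver-1; short lines are the mean of the 3 cultures of a line. AGO2 was higher in 3 of 3 Z-138 cultures and near 0 in Maver-1, AGO4 was above 0 in 6 of 6 cultures, and XPO5 spread from -0.54 to 0.90.

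In the nuclear step, the DROSHA signal (chr5:31400494-31532093) moved in no common direction. In Z-138 it was 834.1 without and 1120.7 with doxycycline for NTC, 889.8 and 774.1 for NIKsh#1, and 878.5 and 1066.7 for NIKsh#2. The Maver-1 values were 1024.8 and 934.9, 949.4 and 952.1, and 957.4 and 780.5 in the same order. It was higher in 3 cultures and lower in the other 3, and the mean change was 0.014 ± 0.10 (adjusted p = 0.979 by limma). The 4 DGCR8/MIR1306 probe sets had mean changes of 0.024, -0.023, -0.027 and 0.26, with SDs over the 6 cultures of 0.15, 0.16, 0.26 and 0.65. The last of these, 219811_at, was also the most variable: it read 33.5 and 22.9 in Z-138 NTC, 25.9 and 43.5 in Z-138 NIKsh#1, and 20.8 and 47.7 in Maver-1 NIKsh#2. None of the 4 passed in the fit of all 27858 probe sets, where 0% of probe sets passed over all 6 cultures.

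The export receptor XPO5 (chr6:43522334-43576038) likewise moved in no common direction. Probe set 223056_s_at, which stood for the gene, read 414.7 and 774.1 in Z-138 NTC, 435.6 and 312.1 in Z-138 NIKsh#1, and 419.8 and 499.5 in Z-138 NIKsh#2. In Maver-1 it read 598.9 and 558.6 for NTC, 519 and 557.3 for NIKsh#1, and 518.5 and 355.9 for NIKsh#2. The highest array of all was thus Z-138 NTC with doxycycline, with a change of 0.90, while the other XPO5 probe sets changed there by 0.048 (223055_s_at) and 0.15 (223057_s_at). In Z-138 NIKsh#1 all 3 probe sets were lower, by -0.57 to -0.42. Over all cultures the change was 0.022 ± 0.17 (adjusted p = 0.98 by limma).

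The DICER1 gene (chr14:95086228-95158010) gave different answers by probe set. The brightest, 212888_at, was higher with doxycycline in 5 of 6 cultures: in Z-138 it read 1314.8 and 1486.5 for NTC, 1509.1 and 2074.2 for NIKsh#1, and 1403.9 and 1914.5 for NIKsh#2. In Maver-1 it read 1555.2 and 1544 for NTC, 1522.6 and 1575.5 for NIKsh#1, and 1458.8 and 1788.1 for NIKsh#2. The 2 Z-138 NIKsh arrays with doxycycline were the highest of the 12. A different course was seen at 213229_at, which read 571.2 and 120.8 in Z-138 NTC, 339 and 584.3 in Z-138 NIKsh#1, and 532.2 and 264.9 in Z-138 NIKsh#2. In Maver-1 it read 126.9 and 213.8 for NTC, 213.6 and 198.5 for NIKsh#1, and 265.7 and 559.7 for NIKsh#2. Its changes ran from -2.21 to 1.07, and those of 206061_s_at, 216280_s_at and 216281_at ran alongside. In Z-138 NTC these 4 probe sets changed by -2.37 to -2.15 while 212888_at changed by 0.18. Set beside the GAPDH ratio, 206061_s_at and 216280_s_at moved opposite to it in 5 of 6 cultures, 213229_at and 216281_at in 4, and 212888_at in 2. Against the same ratio of ACTB these counts were 4, 3 and 1. Such counts were not particular to DICER1. For the GAPDH ratio the count was 6 for 218650_at of DGCR8/MIR1306 and 5 for 234734_s_at, which stood for TNRC6A. It was 1 for 225827_at of AGO2 and 235782_at of AGO3. The share over all probe sets was not computed. Over the 3 Z-138 cultures the change of 213229_at was -0.81 ± 0.44 (adjusted p = 0.342 by limma). It turned to 0.67 with the GAPDH ratio as a covariate, and to 0.97 with the ACTB ratio, again without passing. As both ratios were higher with doxycycline in each Z-138 culture, these fits cannot fully separate RNA quality from doxycycline.

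**Figure D2:**
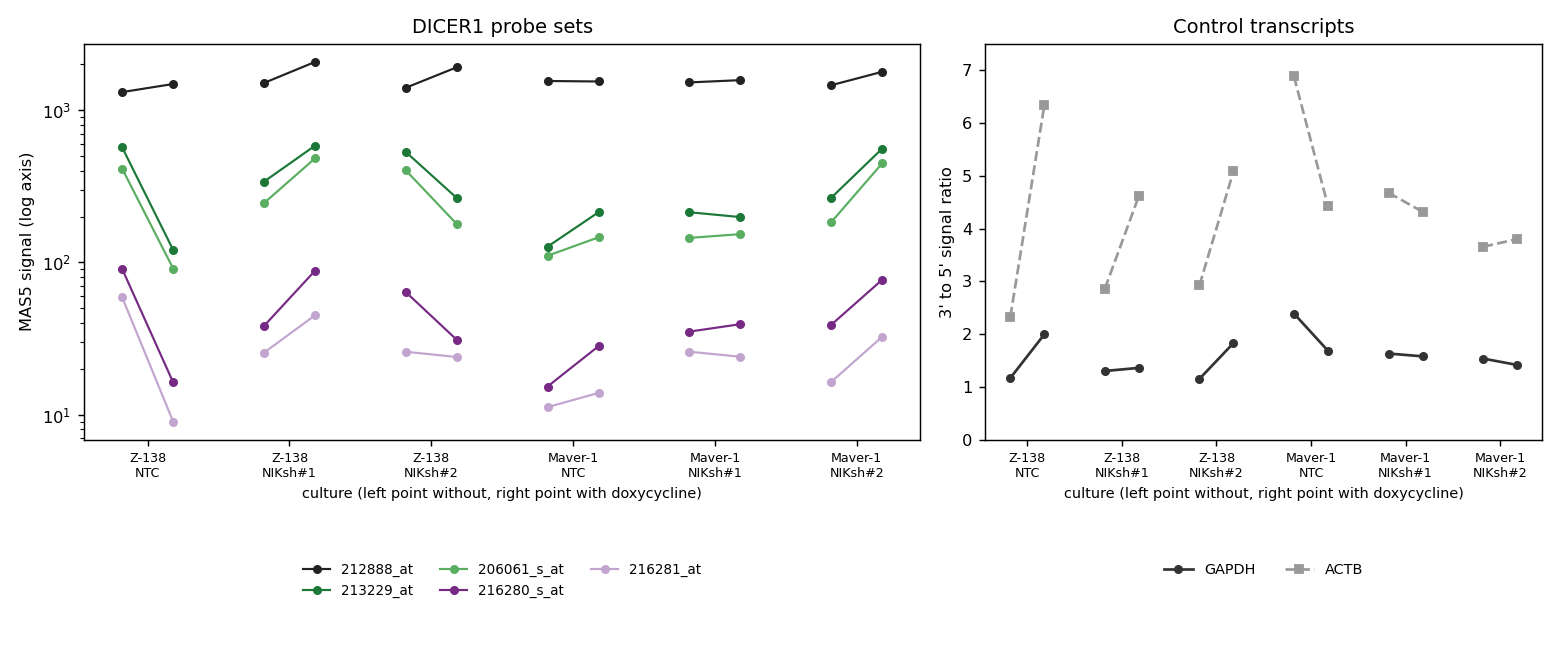
Left, signal of the 5 DICER1 probe sets above the limit (y axis, log scale) in each culture (x axis), left point without and right point with doxycycline. Right, 3' signal over 5' signal for GAPDH (circles) and ACTB (squares) on the same arrays. In Z-138 NTC 4 of the lines drop steeply and in Maver-1 NIKsh#2 they climb, while 212888_at stays between 1314.8 and 2074.2.

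The drop in Z-138 NTC was also seen outside DICER1. Of the 40 probe sets, 22 had their lowest change of the 6 cultures in Z-138 NTC, beside 31.1% of all probe sets, and 9 had a change under -1 there, beside 8.44% of all probe sets. Among them were 222842_at of AGO4 (42.9 and 3.9), 243834_at of TNRC6A (174.3 and 45.7), and 230779_at (370.5 and 106.2), 238468_at (139.4 and 44.8) and 228998_at (108.9 and 46.8) of TNRC6B. For each of these genes the probe set that stood for the gene changed by -0.21 to 0.29 in that culture. Where each probe set lies along its transcript was not analysed here. The part of RNA quality in these changes was examined only through the covariates, which cannot fully separate it from doxycycline in Z-138.

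**Figure D3:**
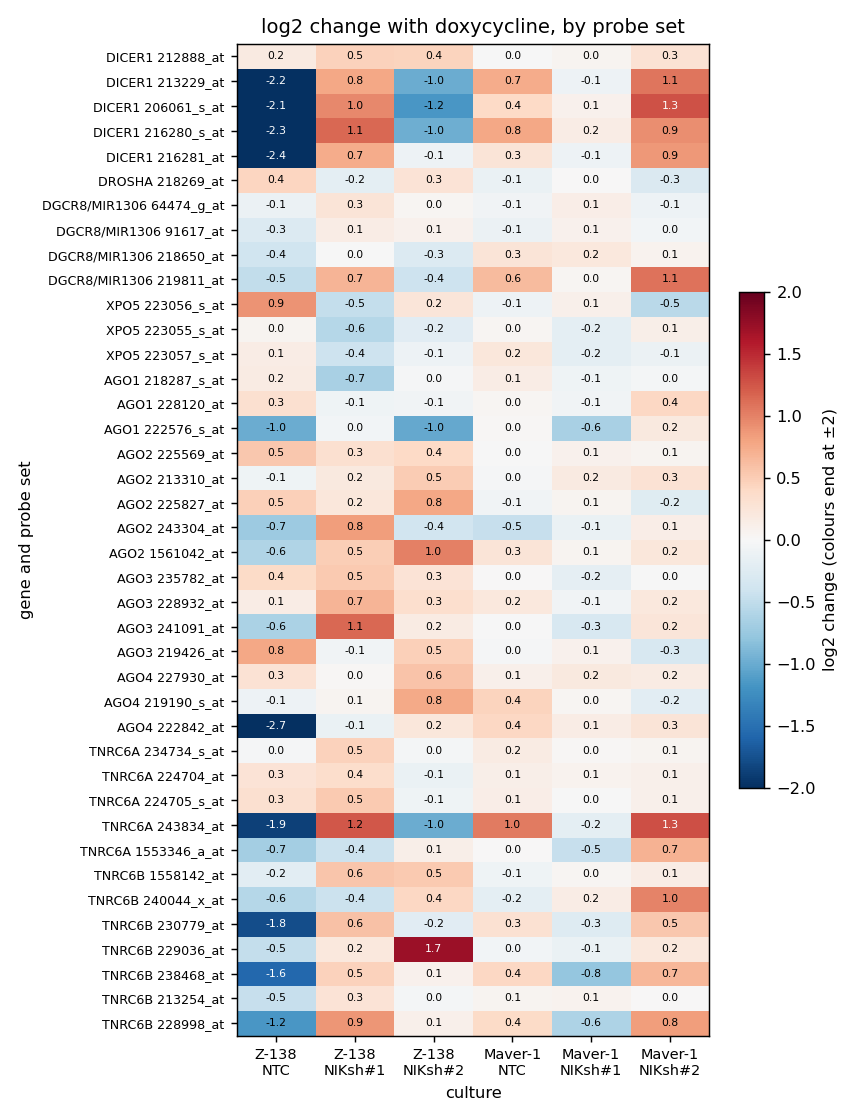
Change of log2(signal + 3) with doxycycline in each culture (columns) for the 40 probe sets above the limit (rows); blue is lower and red higher with doxycycline, and colours end at ±2. The darkest blue cells are in the Z-138 NTC column: 4 DICER1 probe sets and 222842_at of AGO4.

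Among the Argonautes, AGO2 was the one gene of the machinery that passed a doxycycline comparison with all cultures in, in the fit of the 3 Z-138 pairs. Probe set 225569_at read 1237.3 and 1789.7 in Z-138 NTC, 1354.8 and 1699.6 in Z-138 NIKsh#1, and 1291.4 and 1702.7 in Z-138 NIKsh#2. In Maver-1 it read 1334.6 and 1326.3 for NTC, 1213.8 and 1284.7 for NIKsh#1, and 1289.6 and 1346 for NIKsh#2. The 3 Z-138 arrays with doxycycline lay above the other 9, which ran from 1213.8 to 1354.8. AGO2 rose in Z-138 by 0.42 ± 0.08 (adjusted p = 0.0434 by limma), higher in 3 of 3 cultures, and this was 1 of 9 genes of the machinery called, beside 1.27% of all genes (0.728% higher). A change above 0 in 3 of 3 Z-138 cultures was seen in 19.7% of all genes. The change was 0.53 in NTC and 0.33 and 0.40 in the NIKsh cultures. In Maver-1 the change was 0.045 ± 0.08, and the difference between the lines, -0.37 ± 0.11, did not pass (adjusted p = 0.265). The other AGO2 probe sets changed in Z-138 by 0.20, 0.49, -0.091 and 0.30, none of which passed. In the annotation of the array 225569_at, 213310_at and 1561042_at carried the names CASC7 and AGO2. Only CASC7 was given for 243304_at and only AGO2 for 225827_at (0.49).

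The AGO2 call in Z-138 was lost under several alternatives. Its adjusted p was 0.204 without Z-138 NIKsh#2, 0.0992 without Maver-1 NTC, 0.0876 without Maver-1 NIKsh#1 and 0.0917 without Maver-1 NIKsh#2. The change itself was 0.43 without Z-138 NIKsh#2 and stayed at 0.42 without a Maver-1 culture, which enters only through the shared estimate of the spread. With its probe sets averaged the change was 0.26 (adjusted p = 0.362). With the ACTB ratio as a covariate the change was 0.23 (adjusted p = 0.999 by limma), and with the GAPDH ratio it was 0.31 (adjusted p = 0.721). No gene of the array passed in Z-138 in either of these fits. Both ratios were higher with doxycycline in each Z-138 culture, so these fits cannot fully separate RNA quality from doxycycline.

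AGO4, AGO1 and AGO3 lie side by side on chromosome 1 (chr1:35807636-35857890, chr1:35869761-35930532 and chr1:35930718-36072500), with gaps of 11870 and 185 bases, and they did not move as a block. AGO4 was higher with doxycycline in 6 of 6 cultures, as were 2.34% of all genes. In Z-138, 227930_at read 152.4 and 187.5 for NTC, 253.3 and 256.7 for NIKsh#1, and 217.6 and 326.2 for NIKsh#2. In Maver-1 it read 347.8 and 374.3 for NTC, 366.5 and 419.4 for NIKsh#1, and 346.9 and 390.8 for NIKsh#2. The change was 0.23 ± 0.11 and did not pass (adjusted p = 0.70 by limma), and the other AGO4 probe sets above the limit were each higher in 4 of 6 cultures. AGO3 (235782_at) was higher with doxycycline in 3 of 3 Z-138 cultures, by 0.28 to 0.52, and changed by -0.18 to 0.0095 in Maver-1. AGO1 had a mean change of -0.083 ± 0.12: in Z-138 218287_s_at read 324.8 and 364.9 for NTC, 401.9 and 254.3 for NIKsh#1, and 387.3 and 379.4 for NIKsh#2. The low value of AGO1 was that of 1 array, Z-138 NIKsh#1 with doxycycline; in Maver-1 its changes were -0.089 to 0.15.

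The TNRC6 genes, which link Argonautes to mRNA decay, gave the smallest p of the machinery between control and targeting hairpins, at TNRC6B (chr22:40044834-40335808). Probe set 1558142_at read 900.1 and 778 in Z-138 NTC but 909.6 and 1337.1 in Z-138 NIKsh#1 and 906.1 and 1308.9 in Z-138 NIKsh#2. In Maver-1 it read 1672.6 and 1568.3 for NTC, 1643.7 and 1694.1 for NIKsh#1, and 1731.9 and 1914.8 for NIKsh#2. It was lower with doxycycline in both NTC cultures and higher in all 4 NIKsh cultures. The difference of the changes, NIKsh minus NTC, was 0.47 ± 0.17 and did not pass (adjusted p = 0.883 by limma). For the 7 TNRC6B probe sets it ran from 0.28 to 0.90. This rested on Z-138 NTC, where all 7 were lower with doxycycline. Without that culture 4 of the 7 were above 0 and 3 below, from -0.30 to 0.55, while 1558142_at was at 0.41. In Maver-1 the 7 did not share the signs of 1558142_at: 4 were higher for NTC and 4 lower for NIKsh#1. How often all genes show these signs was not computed. TNRC6A (chr16:24610205-24826218) changed by 0.10 ± 0.08 over all cultures, and 1 array stood out: Z-138 NIKsh#1 with doxycycline read 1231.4, against 894.1 without.

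Set side by side, the NTC and the NIKsh cultures gave the machinery no passing gene. In the NTC cultures 0 of 9 genes passed (0% of all genes), and 0 of 9 had an unadjusted p under 0.05, beside 3.35% of all genes. In the NIKsh cultures 0 of 9 passed, beside 0.0433% of all genes; DICER1 (0.31 ± 0.09, adjusted p = 0.27) and TNRC6B (0.32 ± 0.10, adjusted p = 0.36) were the 2 of 9 with an unadjusted p under 0.05, beside 9.01% of all genes. Their difference, the direct test, called 0 of 9 (0% of all genes), with 1 of 9 at an unadjusted p under 0.05 (TNRC6B) beside 5.46%. The estimate farthest from 0 was that of XPO5, -0.56 ± 0.32 (adjusted p = 0.883), which went to -0.066 when Z-138 NTC was left out and to -1.06 when Maver-1 NTC was. These comparisons rest on 2 NTC and 4 NIKsh pairs. Between the hairpins, NIKsh#2 minus NIKsh#1, 0 of 9 genes passed (0% of all genes) and 0 of 9 had an unadjusted p under 0.05, beside 1.75% of all genes; the estimates ran from -0.23 for TNRC6A to 0.34 for AGO1.

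By line, AGO2 rose in Z-138 and no gene of the machinery passed in Maver-1. The median over the 9 genes was 0.29 in Z-138, beside 0.044 over all genes, and 0.032 in Maver-1, beside -0.011. With the probe sets of a gene averaged, the Z-138 median turned to -0.053 and 5 of the 9 genes changed sign, DICER1 (-0.44), AGO4 (-0.11), TNRC6A (-0.12), TNRC6B (-0.053) and XPO5 (-0.051). By the brightest probe sets in Z-138, DICER1 (0.36 ± 0.09, adjusted p = 0.0731) and AGO3 (0.40 ± 0.13, adjusted p = 0.148) followed AGO2 without passing. The 3 were those with an unadjusted p under 0.05, beside 21.4% of all genes. When Z-138 NTC was left out, 3 genes passed in the remaining Z-138 pairs: AGO2 (0.36, adjusted p = 0.0354), DICER1 (0.45, adjusted p = 0.0194) and TNRC6B (0.54, adjusted p = 0.0073). In that fit 4.38% of all genes passed. In Maver-1 0 of 9 passed (0% of all genes), and 0 of 9 had an unadjusted p under 0.05, beside 2.14%. The difference between the lines passed for 0 of 9 genes (0% of all genes), with 2 of 9, AGO2 and AGO3, at an unadjusted p under 0.05 beside 13.7%. Whether doxycycline acted differently in the lines was thus not shown for any gene of the machinery, and the GAPDH ratio moved with doxycycline in opposite ways in the 2 lines.

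Before induction the lines themselves differed in the machinery. In the 6 untreated arrays, 4 of 9 genes passed, 3 higher and 1 lower in Maver-1, beside 60.2% of all genes, 34.8% higher and 25.4% lower. The share of the machinery that differed is thus not above that of the array as a whole.

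TNRC6B and AGO4 were the genes most above in Maver-1. TNRC6B was at 905 ± 4.80 in Z-138 against 1683 ± 45.0 in Maver-1 (signal, mean ± SD, n = 3 cultures each), a difference of 0.89 ± 0.07 (SE; adjusted p = 1.7e-07 by limma). All 7 of its probe sets were above 0 in this comparison, and 4 of them passed. AGO4 was at 208 ± 51.2 and 354 ± 11.1, a difference of 0.79 ± 0.16 (adjusted p = 0.00085); the untreated Z-138 arrays reached 253.3 and the Maver-1 arrays began at 346.9, a lack of overlap seen in 37.9% of all genes. Of its 3 probe sets above the limit, 2 passed, both higher in Maver-1. The neighbouring AGO3 had 2 of 4 probe sets higher in Maver-1 (228932_at by 0.71 ± 0.14 and 219426_at by 0.89 ± 0.17), though the brightest, 235782_at, differed by 0.12 ± 0.14 and did not pass.

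TNRC6A was the gene that was lower in Maver-1. It was at 916 ± 50.4 in Z-138 against 675 ± 71.5 in Maver-1 (n = 3 each), a difference of -0.44 ± 0.10 (SE; adjusted p = 0.0014 by limma). Of its 5 probe sets above the limit, 3 passed, all lower in Maver-1, and 243834_at was the farthest at -1.74 ± 0.36. With the ACTB ratio as a covariate the difference of the gene was -0.14 and with the GAPDH ratio -0.20, and neither passed. Both ratios were higher in every untreated Maver-1 array than in any untreated Z-138 array. These fits therefore cannot fully separate RNA quality from the line.

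XPO5 and DICER1 depended on the probe set read. For XPO5, 223056_s_at was higher in Maver-1 by 0.36 ± 0.10, at 423 ± 10.9 in Z-138 against 545 ± 46.3 in Maver-1, and 223055_s_at was lower by -0.55 ± 0.11, at 360 ± 11.0 and 246 ± 11.6, respectively. Both passed, and 223057_s_at did not (0.054 ± 0.13). For DICER1, 4 of 5 probe sets were lower in Maver-1: 213229_at was at 481 ± 124 in Z-138 against 202 ± 70.1 in Maver-1, a difference of -1.27 ± 0.25. The others that passed were 206061_s_at (-1.25), 216280_s_at (-1.05) and 216281_at (-0.90). Each of these 4 calls was lost under at least 1 alternative. The adjusted p by limma reached 0.54, 0.22, 0.72 and 0.98 in the order given. The brightest, 212888_at, was at 1409 ± 97.3 and 1512 ± 49.0, a difference of 0.10 ± 0.07 that did not pass. When probe sets were averaged, XPO5 turned to -0.044 and DICER1 to -0.73, and the latter passed (adjusted p = 0.0080).

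For the nuclear pair, DROSHA and 3 of the 4 DGCR8/MIR1306 probe sets read higher in Maver-1. DROSHA, with 1 probe set, was at 867 ± 29.4 in Z-138 against 977 ± 41.4 in Maver-1. The lines did not overlap, as Maver-1 lay above Z-138 in 37.9% of all genes. The difference of 0.17 ± 0.08 did not pass (adjusted p = 0.0778 by limma). Of the 4 DGCR8/MIR1306 probe sets, 64474_g_at (0.38 ± 0.13), 91617_at (0.62 ± 0.16) and 218650_at (0.58 ± 0.17) were higher in Maver-1 and 219811_at was lower (-0.68 ± 0.25), and all 4 passed. AGO1 (-0.12 ± 0.12) and AGO2 (-0.017 ± 0.07) did not pass by their brightest probe sets. However, 228120_at of AGO1 (0.53 ± 0.15) and 213310_at of AGO2 (0.38 ± 0.12) passed, both higher in Maver-1. Each of these calls was lost under at least 1 alternative. The adjusted p by limma reached 0.41, 0.080, 0.11 and 0.96 for the DGCR8/MIR1306 probe sets in the order above. It reached 0.81 for 228120_at, at 0.091 with the ACTB ratio. For 213310_at it reached 0.63, and the difference was 0.14 with the GAPDH ratio.

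**Figure D4:**
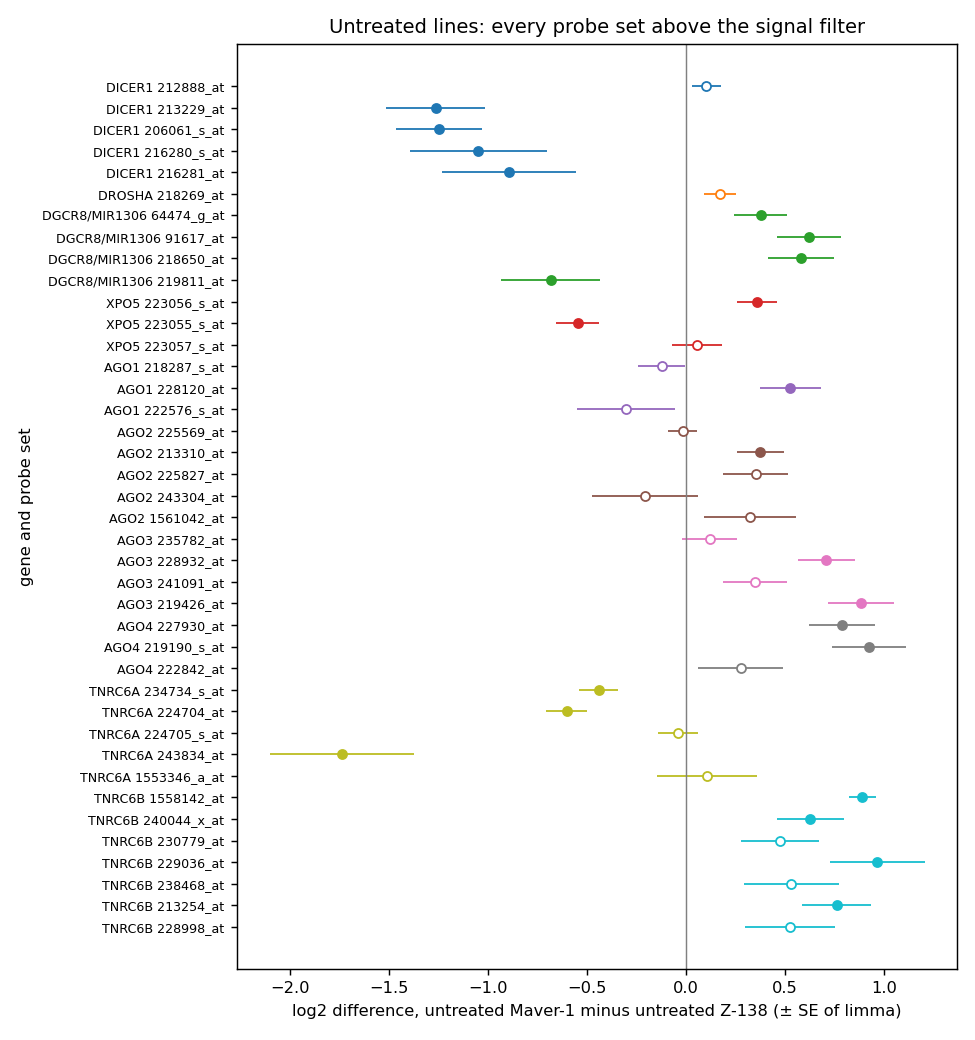
Difference of log2(signal + 3) between untreated Maver-1 and untreated Z-138 (x axis, bars are the SE of limma) for each probe set of the machinery above the limit (y axis), coloured by gene. Filled points passed and open points did not; of 40, 14 were higher and 9 lower in Maver-1, and the DICER1, XPO5 and DGCR8/MIR1306 probe sets lie on both sides of 0.

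Counted over probe sets, 14 of 40 were higher and 9 lower in untreated Maver-1, beside 52.9% of all 27858 probe sets that passed either way. Without doxycycline the GAPDH ratio was 1.15 to 1.30 in Z-138 and 1.54 to 2.39 in Maver-1, so RNA quality moved with the line too. A fit with this ratio as a covariate cannot fully separate RNA quality from the line. With the ratio of GAPDH as a covariate, 1 of 9 genes passed, TNRC6B (0.91); AGO4 (0.71) and XPO5 (0.16) kept their sign and did not pass. In the same fit 213229_at of DICER1 was at -0.25, and 216280_s_at turned to 0.22. The TNRC6B probe sets 230779_at, 238468_at and 228998_at, which had not passed, did so with this covariate at 1.19, 1.44 and 1.37.

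Cultures that carried a MAP3K14 hairpin did not differ from NTC cultures before induction in any gene that passed. Of the 9 genes 0 passed (0% of all genes), and 1 of 9, AGO4, had an unadjusted p under 0.05 (0.32 ± 0.15, adjusted p = 0.989), beside 4.76% of all genes.

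The partners of the machinery were read from 3 further lists. Over all 6 cultures no gene of these lists passed with doxycycline, and the medians below stand beside 0.017 over all genes and the counts beside the 7.26% of all genes with an unadjusted p under 0.05. Among 30 measured partners in microRNA processing and Argonaute loading, the median was 0.019, and 2 had an unadjusted p under 0.05, ERH (-0.13, adjusted p = 0.679) and ILF2 (-0.12, adjusted p = 0.683); ERH is a small protein that binds DGCR8. Among 34 genes of silencing and mRNA decay the median was 0.059, and 4 had an unadjusted p under 0.05. These were CNOT7 (0.13) and CNOT9 (-0.23) of the CCR4-NOT deadenylase complex, AJUBA (0.38), and TNRC6C (0.29), the third TNRC6 gene. In Z-138, HSP90AA1, a chaperone that helps load Argonautes, rose by 0.20 ± 0.04 (adjusted p = 0.0448 by limma), and PABPC1, the poly(A) binding protein that TNRC6 proteins contact, rose by 0.29 ± 0.05 (adjusted p = 0.0434). They were 1 of 30 and 1 of 34 genes, beside 1.27% of all genes, and like every call in Z-138 they were lost with no filter, no intensity trend, either ratio as a covariate, or without Z-138 NIKsh#2 or any 1 of the Maver-1 cultures, where 0 genes passed.

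Double-stranded RNA can also be met by sensors that switch on interferon genes. Of 15 measured sensors and early interferon genes none passed with doxycycline over all 6 cultures, with a median of 0.045. IFIH1, the sensor MDA5, had the smallest p, at -0.62 ± 0.26 (adjusted p = 0.679), and in the NIKsh cultures it was at -1.02 ± 0.24 (adjusted p = 0.205 by limma). Its difference NIKsh minus NTC was -1.20 and did not pass, so the NTC cultures did not share the lower value. ADAR, which edits double-stranded RNA and was also among the partners, changed by 0.13 ± 0.07 and ISG15 by -0.13 ± 0.12.

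Between the untreated lines 60.2% of all genes passed, and the first 2 of these lists were near that share. Of the 30 partners, 9 were higher and 8 lower in Maver-1, among them TENT2 (0.74), TUT7 (0.58) and STIP1 (0.46), higher, and DDX5 (-1.09), a helicase of the DROSHA complex, lower. Of the 34 decay genes, 10 were higher and 10 lower, with EDC3 (1.01) and EIF4ENIF1 (0.93), which act with the decapping machinery, among the higher and CNOT7 (-0.51) among the lower. Of the 15 interferon and sensor genes, 10 were higher and 3 lower, and OAS2 (4.34 ± 0.19), IFIT2 (3.13 ± 0.19), IFIT3 (1.79 ± 0.16) and IFIH1 (0.97 ± 0.11) were each higher in Maver-1 with an adjusted p under 0.05 by limma.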

How the data were processed

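The deposited table held a signal intensity per probe set and array; per the submitters' processing notes the authors made it with MAS5, and the mean of each array, trimmed by 2 percent at both ends, was 149.98. No further normalization was applied. Of 54675 probe sets, 41117 had 1 gene symbol after an update through the RefSeq table of GRCh38.p14, in which CASC7 is now a synonym of AGO2. All tests were limma's (version 3.58.1, R 4.3.3) on log2(signal + 3) with an intensity trend and Benjamini-Hochberg adjustment, and with culture as a fixed block where doxycycline was compared; the untreated comparisons had 1 array per culture and no block. On simulated data for all 6 cultures with 11546 genes, 79% of changes of 1 and 99% of changes of 2 (log2) were recovered. In that simulation 11 genes without a change also passed. Changes as small as those of the machinery were not simulated, so their recovery is not known. The block rests on the labels, in which each construct's cells were split by doxycycline. As a check, the deviation of NIKsh#1 from the mean of the 2 NIKsh arrays was correlated over genes between the doses. The correlation was -0.038 for Z-138, which shows no pairing there, and 0.20 for Maver-1. Named were all members with every probe set, up to 4 genes of each list with the smallest p over all cultures or between untreated lines, and markers; others were chosen after their values were seen. Members and lists were chosen with earlier results of these data known. Alternatives were the pseudocount, filter, probe set rule, scaling, trend, block, each culture left out and the ACTB ratio; those with the GAPDH ratio and those on single probe sets were added after seeing the data. Precision is limited by having 12 arrays.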

Additional observations from a re-analysis of the deposited data

Results flagged for a closer look

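The doxycycline change of AGO1 in Z-138 NIKsh#1, -0.65 on the log2 scale, stood far below the other 5 cultures, which lay between -0.089 and 0.17; its distance to the nearest was 0.689 of the whole range. The other AGO1 probe sets above the limit changed there by -0.092 and -0.049. About 1 in 20 groups of values is singled out this way by chance.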

How the results depend on the processing

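With doxycycline over all 6 cultures, in the NTC cultures, in Maver-1, between the hairpins and between NIKsh and NTC cultures, no gene passed under any alternative run. In the NIKsh cultures 5 genes passed, none of the machinery. Their number was 3 with no filter, with averaged probe sets and with no intensity trend, and 2 with the filter at the 75th percentile and with all probe sets fitted separately. It was 16 with no replicate block and 13 with culture as a random replicate block, 24 with the GAPDH ratio, and 0 to 5 with each culture left out. In Z-138, 147 genes passed; 0 did so with no filter, with all probe sets fitted separately, with no trend or with the ACTB or GAPDH ratio, 15 with averaged probe sets, 65 with quantile normalization, and 0 to 1034 with each culture left out. Of the machinery 1 gene was among them, AGO2; it was 0 genes with no filter, all probe sets, no trend, averaged probe sets or either ratio, and 0 to 3 with each culture left out. AGO2 kept its call with no replicate block (adjusted p = 0.0304 by limma). The difference of the lines in the doxycycline change called 0 genes, and 0 to 369 with each culture left out. Between untreated lines 6956 genes passed, 14731 probe sets when all were fitted, 4005 genes with the ACTB ratio and 4066 with the GAPDH ratio; machinery genes went from 4 to 1 with either ratio. Averaged probe sets reversed DICER1 (-0.73) and XPO5 (-0.044), and 216280_s_at of DICER1 reversed to 0.26 with the ACTB and 0.22 with the GAPDH ratio. Between untreated NIKsh and NTC cultures 0 genes passed, 6 with the ACTB ratio, 31 with the GAPDH ratio, and 0 to 108 with each culture left out. The cause of these shifts was not tested.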
